A study of Mus musculus with 4 samples.

Results

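The 43 genes described here encode the machinery of DNA replication and of entry into S phase. They were chosen by name, with earlier results of these data known. Their products license origins, unwind and copy DNA, supply nucleotides, rebuild chromatin or drive the G1/S transition. All 43 were among the 18471 genes that could be tested, and they were covered by 61 array probes, of which 58 were tested. Of the 61 probes 59 carried the name used here in the array files. Gins2 was listed as 4833427B12Rik and Rfc1 as Recc1.

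The arrays compared RNA of culture-derived CD8+ T cells with that of thymic CD8+ cells, all from C57Bl/6 mice. The in vitro-derived cells came from 100000 sorted Lin- Sca1+ CD117+ bone marrow cells of mice aged 6 to 8 weeks. They were grown for 35 days with Flt3 (5 ng/ml) and IL7 (1 ng/ml) on OP9-DL1 stroma, a marrow-derived feeder line engineered to carry Delta-like 1, a Notch ligand. The thymic cells came from mice aged 4 to 5 weeks. Both kinds were sorted as CD8+ with high T cell receptor beta and had no further treatment. Each kind gave 2 RNA preps, and every in vitro prep was hybridised against each thymic prep on 4 Agilent arrays, with in vitro-derived RNA in Cy5 and thymic RNA in Cy3 throughout. Dye, donor age and origin of the cells therefore cannot be told apart. Preps are called biological replicates in the labels, without naming separate animals or cultures, and p-values thus cover only the spread from prep to prep.

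In G1, the origin recognition complex, CDC6 and CDT1 load the ring of MCM2 to MCM7 onto origins. At the start of S phase the ring is activated by CDC45 and the GINS complex, and primase, the polymerases, the PCNA clamp and its loader then copy the DNA. Genes of this machinery are classical targets of E2F transcription factors, which are released as cyclin E and its kinase act on the retinoblastoma protein. In the thymus, dividing cells are mostly immature ones, while most mature single-positive cells rest.

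Spots well above background, a call of the scanner software from the spread of the background, made up 66.5% to 70.9% of the spots in Cy5 and 63.7% to 65.6% in Cy3. The smallest p of an exact permutation test for 1 gene is 0.333 in a design of 2 preps against 2, so that calls rest on limma, which shares variance over genes. A gene was called at a Benjamini-Hochberg adjusted p under 0.05. Markers of other cells differed in the same comparison. Of 8 tested stromal markers 7 were higher in in vitro-derived cells (median log2 difference 2.29), among them the collagen gene Col1a2, at log2 levels of 10.97 and 11.35 in in vitro-derived preps and 8.30 and 8.13 in thymic preps. Dcn, Lum and Pdgfra were not tested. These values depend on the filter, since a probe was tested where 1 channel or both stood well above background. With both channels required, 5 of 5 stromal markers were higher (median 2.94). With no filter on dim probes 7 of 11 were higher (median 0.96). Of 7 tested markers of immature double-positive thymocytes 6 were higher (median 3.34), whereas the 8 CD8 T cell markers went both ways. Cd247, Lck and Thy1 were higher (3 genes) and Cd3e, Cd3g, Cd8a and Cd8b1 lower (4 genes), with a median of -0.28. With median centring in place of loess 7 were higher and 0 lower, with a median of 0.66. With Agilent's processed ratios 0 were higher and 4 lower (median -0.34). The same counts were found with the background fitted on all spots (median -0.25). Cd8a itself, used in the sort, was bright in every prep, at 14.56 and 14.31 in in vitro-derived preps and 15.19 and 15.22 in thymic preps. Of the 11 tested markers of B, myeloid, erythroid and NK cells 2 were higher and 3 lower. The part of these cells in the results below was not tested. In bulk RNA, more cells in cycle and more transcript per cell cannot be told apart.

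The 43 replication and G1/S genes were almost uniformly higher in in vitro-derived cells. Of the 43 genes 41 rose, 0 fell and 2 did not pass the test, the helicase subunit gene Mcm2 and the clamp loader gene Rfc2. Over all genes tested 26.7% were called higher and 25.1% lower. The median log2 difference of the 43 genes was 0.95 (1.94-fold), with a range of -0.08 to 2.36, beside a median of 0.03 over all genes. At least 2-fold higher values were found for 19 of them (44.2%), against 5.59% of all genes. Both in vitro-derived preps lay above both thymic preps for 41 genes (95.3%), against 41.5% of all genes. Among the 41 called genes, 38 had an adjusted p under 0.01, and the lowest adjusted p in limma was 5.4e-05.

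**Figure D1:**
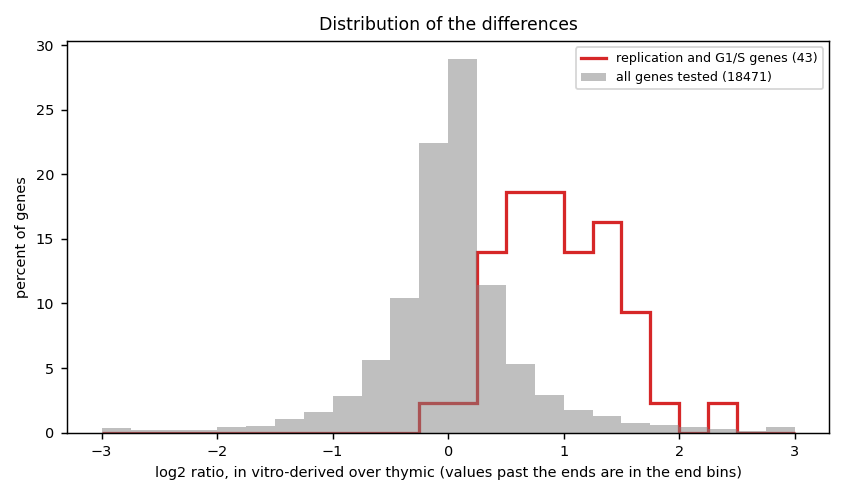
Distribution of the log2 difference, in vitro-derived over thymic, as the share of genes in each bin, for the 43 replication and G1/S genes and for all 18471 genes tested. The 43 genes have their median at 0.95 and all genes at 0.03.

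**Figure D2:**
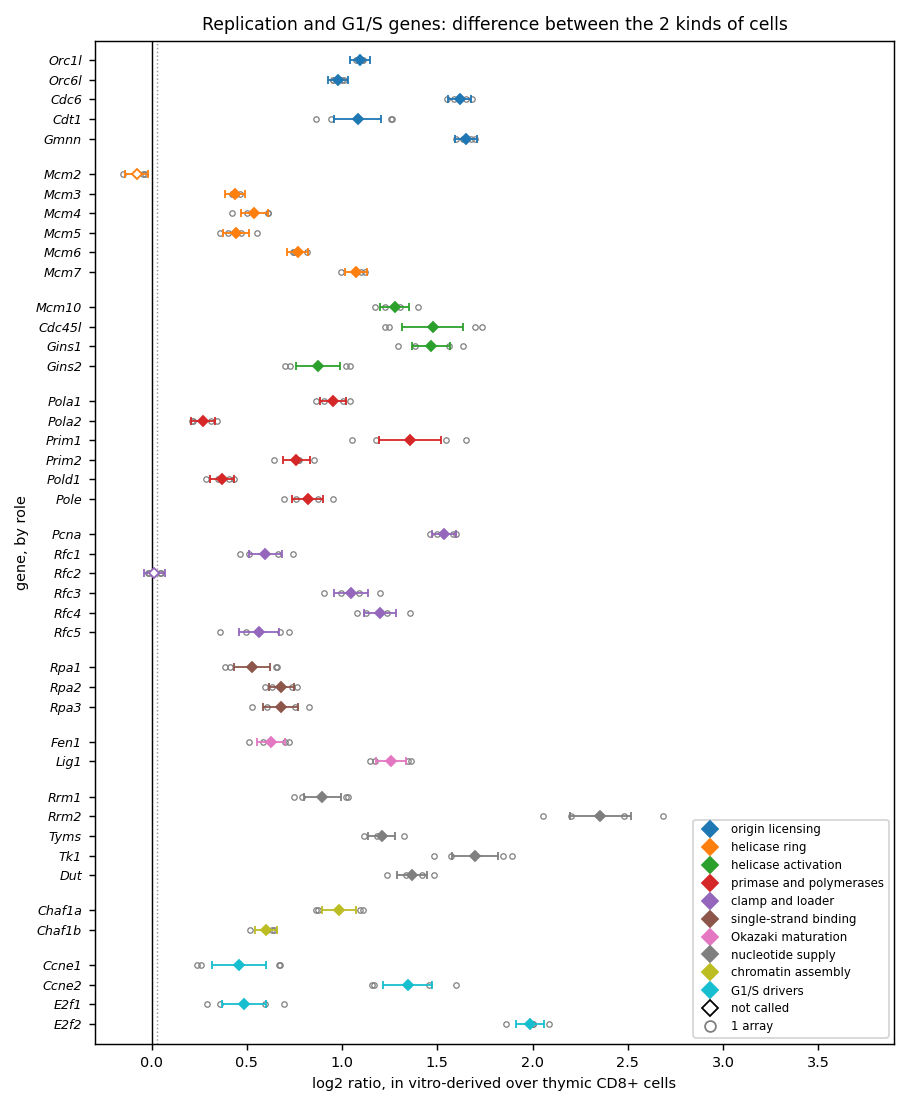
Log2 difference, in vitro-derived over thymic, of each of the 43 genes (diamonds, open where not called) with its standard error (n = 2 preps of each kind) and its 4 array values (circles), ordered by role. The solid line is at 0 and the dotted line at the median of all genes. The largest values are those of Rrm2 (2.36) and E2f2 (1.99), and the lowest is that of Mcm2 (-0.08, or 0.76 with median centring).

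Promoters of several of these genes are shown because E2F-type letters were found in many of them, and because the set spans the largest difference, that of Rrm2, and a gene that did not pass the test, Mcm2. Windows from 250 bases before to 50 after the start were available for 35 of the 43 genes (RefSeq, GRCm38.p6). They were searched on both strands for TTTCCCGC, TTTGGCGC, TTTCGCGC and TTTGCCGC, with overlapping matches counted by position. At least 1 match lay in the window of 12 of the 35 genes (34.3%), against 2.60% of all 27025 genes with a window and 4.26% of the 11514 that were also tested here. The 40 windows of these 35 genes were richer in G and C, with a median of 61.3% against 52.7% over all windows, and the part of base composition in this gap was not tested. The letters CCAAT were in the windows of 60.0% of the members and 41.1% of all genes. Matches are in capitals below, each sequence running 5′ to 3′ on the strand of its gene.
Mcm6, chr1:128359656-128359955, minus strand: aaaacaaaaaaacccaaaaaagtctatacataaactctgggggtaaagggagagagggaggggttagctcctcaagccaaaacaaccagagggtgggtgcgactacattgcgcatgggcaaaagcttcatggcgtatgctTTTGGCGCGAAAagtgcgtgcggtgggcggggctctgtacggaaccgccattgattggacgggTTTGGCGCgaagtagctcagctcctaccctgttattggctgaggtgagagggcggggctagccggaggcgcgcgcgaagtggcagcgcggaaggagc
Mcm2, chr6:88898731-88899030, minus strand: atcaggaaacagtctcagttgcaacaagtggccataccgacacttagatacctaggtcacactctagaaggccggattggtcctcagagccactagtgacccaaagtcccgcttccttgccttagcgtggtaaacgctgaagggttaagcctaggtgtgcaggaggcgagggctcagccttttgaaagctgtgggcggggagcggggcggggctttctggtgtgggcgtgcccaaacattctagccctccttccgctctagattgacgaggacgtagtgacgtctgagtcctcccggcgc
Cdc6, chr11:98907901-98908200, plus strand: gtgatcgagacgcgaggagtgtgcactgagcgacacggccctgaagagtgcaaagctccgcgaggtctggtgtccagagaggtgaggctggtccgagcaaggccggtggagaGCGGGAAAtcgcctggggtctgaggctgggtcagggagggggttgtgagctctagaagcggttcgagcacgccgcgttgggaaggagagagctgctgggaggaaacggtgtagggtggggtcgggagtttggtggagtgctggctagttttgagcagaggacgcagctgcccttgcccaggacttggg
E2f2, chr4:136172024-136172323, plus strand: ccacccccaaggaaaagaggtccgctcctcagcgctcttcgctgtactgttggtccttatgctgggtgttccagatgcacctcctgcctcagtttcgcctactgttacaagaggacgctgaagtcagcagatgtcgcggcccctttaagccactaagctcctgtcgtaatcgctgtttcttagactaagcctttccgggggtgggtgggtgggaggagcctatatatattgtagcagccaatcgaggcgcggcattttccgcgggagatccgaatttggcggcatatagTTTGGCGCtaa
Rrm2, chr12:24708004-24708303, plus strand: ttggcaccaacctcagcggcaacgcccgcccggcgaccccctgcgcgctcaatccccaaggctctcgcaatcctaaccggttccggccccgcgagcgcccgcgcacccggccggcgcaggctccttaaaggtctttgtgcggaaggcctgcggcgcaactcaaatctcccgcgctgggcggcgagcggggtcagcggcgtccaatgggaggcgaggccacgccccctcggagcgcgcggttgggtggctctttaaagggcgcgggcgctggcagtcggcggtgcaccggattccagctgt
The window of Mcm6 holds 3 matches, 2 of which overlap, and those of Cdc6 and E2f2 hold 1 each (E2f2 has a second window, not shown, with none). The windows of Mcm2, which did not pass the test, and of Rrm2, which had the largest difference, hold none of these letters, which says only that the letters are not in these windows. By role, matches were found for 4 of 5 helicase ring genes with a window and 3 of 4 licensing genes. Primase and polymerases had 2 of 4 genes with a match, and Okazaki maturation 1 of 2. Of G1/S drivers 1 of 3 had a match, and of clamp and loader genes 1 of 5. None were in nucleotide supply (0 of 5), single-strand binding (0 of 3), helicase activation (0 of 2) or chromatin assembly (0 of 2).

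Origin licensing genes rose in 5 of 5, with a median of 1.09. Gmnn encodes geminin, which holds back CDT1 after an origin has fired. Its log2 levels, the normalised intensity of the channel averaged over the arrays of a prep, were 15.59 and 15.67 in in vitro-derived preps and 13.96 and 14.00 in thymic preps. The groups did not overlap, and the log2 difference was 1.65 ± 0.06 (SE, n = 2 preps of each kind, limma adjusted p = 5.4e-05). Cdc6, for the ATPase that helps load the helicase, was 3.07-fold higher (1.62 ± 0.06), with levels of 11.03 and 11.17 in in vitro-derived preps and 9.49 and 9.48 in thymic preps. Cdt1, its partner in loading, was 2.12-fold higher (1.08 ± 0.12), with the wider error going with in vitro-derived preps at 14.94 and 15.19, against 14.00 and 13.96 in thymic preps. The origin recognition subunit genes Orc1l (1.09 ± 0.05) and Orc6l (0.98 ± 0.05) rose to a like degree. Levels are compared between preps of 1 gene only, since probes differ in brightness.

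The helicase ring had the smallest median of the roles with loess, an order that did not hold with median centring. Of Mcm2 to Mcm7, 5 rose and Mcm2 was not called, with a median of 0.49. Mcm7 rose most, to levels of 15.37 and 15.44 in in vitro-derived preps, against 14.33 and 14.33 in thymic preps (1.07 ± 0.06). Mcm6 followed (0.77 ± 0.05), then Mcm4 (0.54 ± 0.07), and Mcm3 and Mcm5 each lay 1.36-fold higher. Mcm2 lay at 13.22 and 13.07 in in vitro-derived preps and at 13.21 and 13.24 in thymic preps, so that its groups overlapped (-0.08 ± 0.06, limma adjusted p = 0.32). These 6 genes were among the brightest on the array, with a median intensity percentile of 97.8. With median centring in place of loess, which moved the median of all genes from 0.03 to 0.34, Mcm2 was called higher (0.76) and the ring's median became 1.53, above those of single-strand binding (1.42), primase and polymerases (1.43) and G1/S drivers (1.43). It was called by none of the other alternatives.

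Genes for the factors that turn the loaded ring into an active helicase rose in 4 of 4, with a median of 1.37 beside 0.49 for the ring. Cdc45l encodes the CDC45 subunit of the active helicase. It had levels of 11.03 and 11.49 in in vitro-derived preps and 9.76 and 9.81 in thymic preps, a difference of 1.48 ± 0.16 (limma adjusted p = 0.0014). Gins1 (1.47 ± 0.10) and Gins2 (0.87 ± 0.11) encode subunits of GINS, and Mcm10 (1.28 ± 0.07) a factor needed to start unwinding. Whether activation and ring genes differ from each other was not tested.

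Primase and polymerase genes rose in 6 of 6, with a median of 0.79 and a wide span. Prim1, the catalytic primase subunit gene, was 2.56-fold higher (1.36 ± 0.16), at 14.30 and 14.69 in in vitro-derived preps and 13.07 and 13.20 in thymic preps. Pola1, for the catalytic subunit of polymerase alpha, was 0.95 ± 0.07 higher and Pole, for that of the leading-strand polymerase epsilon, 0.82 ± 0.08. Pold1, for the catalytic subunit of polymerase delta, rose less (0.37 ± 0.06). The primase subunit gene Prim2 lay at 0.76 ± 0.07 as a mean of 2 probes, with 1.32 on the brighter and 0.20 on the dimmer. Pola2, an accessory subunit gene of polymerase alpha, had the smallest called difference of all as a mean over probes (0.27 ± 0.06, limma adjusted p = 0.018). Its brighter probe gave 0.52, and with the brightest probe per gene Pold1 lay lower (0.39).

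The clamp gene Pcna rose clearly and its loader genes unevenly, 5 of the 6 genes being called with a median of 0.82. Pcna, for the ring that holds polymerases on DNA, lay at 16.45 and 16.51 in in vitro-derived preps and 14.95 and 14.94 in thymic preps. The groups did not overlap and the difference was 1.53 ± 0.06 (2.90-fold). Its probe was printed in 10 spots on each array, whose mean log2 ratio lay between 1.46 and 1.60 with an SD of 0.04 to 0.06. Of the loader genes, Rfc4 (1.20 ± 0.08), Rfc3 (1.05 ± 0.09), Rfc1 (0.60 ± 0.09) and Rfc5 (0.56 ± 0.10) rose. Rfc2 had levels of 13.45 and 13.49 in in vitro-derived preps and 13.46 and 13.45 in thymic preps, and differed by 0.01 ± 0.06 (limma adjusted p = 0.85). Its 2 probes were 0.08 ± 0.07 and -0.06 ± 0.06, neither of them called. With median centring Rfc2 was called higher as well (0.89).

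Replication protein A, which coats single-stranded DNA, had 3 of 3 subunit genes higher, Rpa2 and Rpa3 by 1.60-fold each and Rpa1 by 1.44-fold. Of the genes that finish Okazaki fragments, Lig1, the ligase gene, was 2.39-fold higher (1.26 ± 0.08) and Fen1, the flap nuclease gene, 1.55-fold higher (0.63 ± 0.07). Both large subunit genes of the chromatin assembly factor CAF-1, which puts histones onto new DNA, rose, Chaf1a by 0.98 ± 0.09 and Chaf1b by 0.60 ± 0.06.

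Nucleotide supply held the largest single difference. Rrm2, the S phase subunit gene of ribonucleotide reductase, lay at 13.04 and 13.60 in in vitro-derived preps and 10.90 and 11.04 in thymic preps. The groups were far apart, with a difference of 2.36 ± 0.16 (5.12-fold, limma adjusted p = 3.3e-04). Tk1, the S phase thymidine kinase gene, was 3.24-fold higher (1.70 ± 0.12), at 12.90 and 13.31 in in vitro-derived preps against 11.38 and 11.43 in thymic preps. Dut, for the enzyme that keeps uracil out of DNA, rose by 1.37 ± 0.08. Tyms, the thymidylate synthase gene, rose by 1.21 ± 0.07 as a mean of 3 probes, at 1.75, 1.71 and, on the dimmest, 0.17. Rrm1, for the large subunit of ribonucleotide reductase, rose by 1.64 ± 0.09 on its probe above background in both channels. Its mean of 0.90 over both probes includes a probe that was not well above background in thymic RNA. All 5 genes rose, with a median of 1.37 that used this mean, or of 1.64 with probes above background in both channels only. With the brightest probe per gene the median was 1.70.

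**Figure D3:**
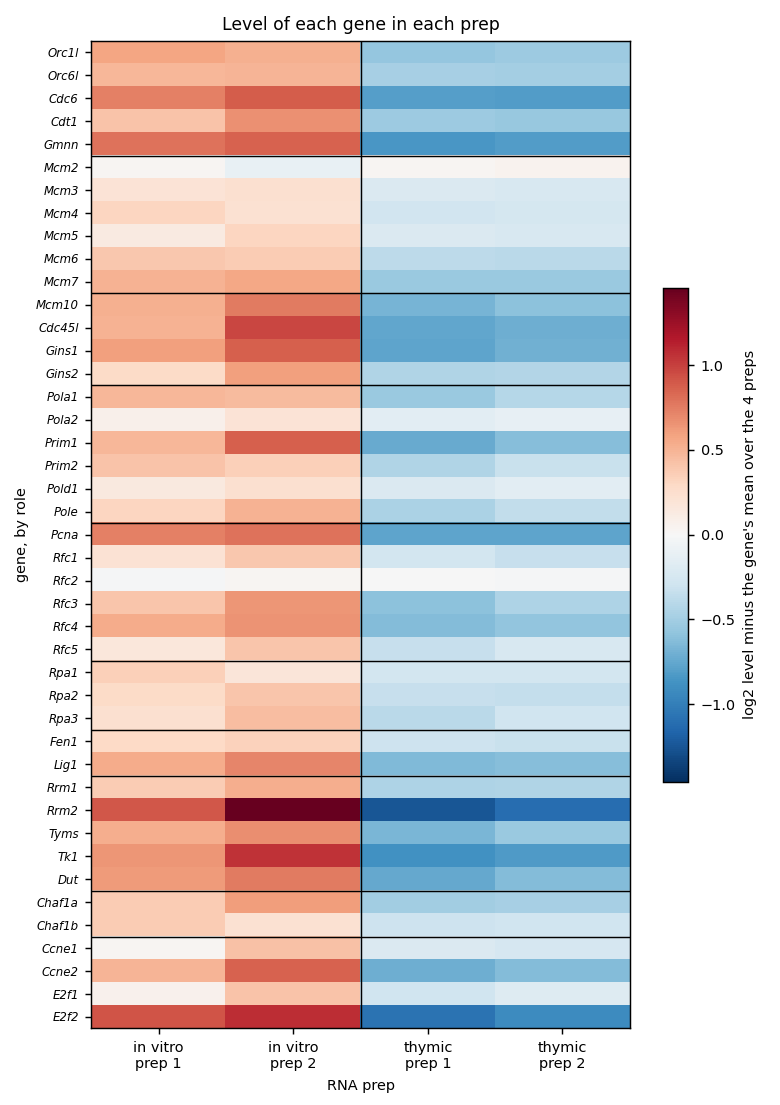
Log2 level of the 43 genes in each of the 4 preps, as the normalised channel intensity, relative to the mean of the gene over the 4 preps (red above it, blue below). For 41 genes both in vitro-derived preps lie above both thymic preps, and Mcm2 and Rfc2 are the exceptions.

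The 4 drivers of the G1/S transition all rose, by unequal amounts. E2f2, for an activator of S phase genes, lay at 14.64 and 14.80 in in vitro-derived preps and 12.66 and 12.81 in thymic preps (1.99 ± 0.07, 3.96-fold). E2f1, for the founding member of that family, lay at 9.76 and 10.11 in in vitro-derived preps and 9.40 and 9.50 in thymic preps (0.48 ± 0.12, limma adjusted p = 0.021). Of the cyclin E genes, Ccne2 was 2.54-fold higher (1.34 ± 0.13). Ccne1 was 1.37-fold higher (0.46 ± 0.14) and had the weakest call of all, with an adjusted p of 0.046 in limma. Ccne1, E2f1 and Pola2 lost their calls with Agilent's processed ratios and with the background fitted on all spots.

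Different probes of a gene did not always give the same size. Of the 14 genes with 2 or more tested probes, Tyms had probes at 1.75, 1.71 and 0.17, Prim2 at 1.32 and 0.20, Pola2 at 0.52 and 0.02, and E2f1 at 0.65 and 0.32. In each of these the low value came from the dimmest probe. For E2f1 that probe was printed in 10 spots on each array, was above background in both channels and was not called. The E2f1 probe at 0.65 had 1 spot. For Rrm1 the brighter probe gave 1.64 ± 0.09, while the dimmer gives no measured fold, since it was not well above background in thymic RNA on any array. Probes of Gins1 (1.52 and 1.42), Cdc6 (1.68 and 1.56) and Dut (1.43 and 1.31) lay close together. The means over probes given above are therefore lower than the brightest probe shows for these 5 genes. None of the 14 genes had a probe that was called lower.

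**Figure D4:**
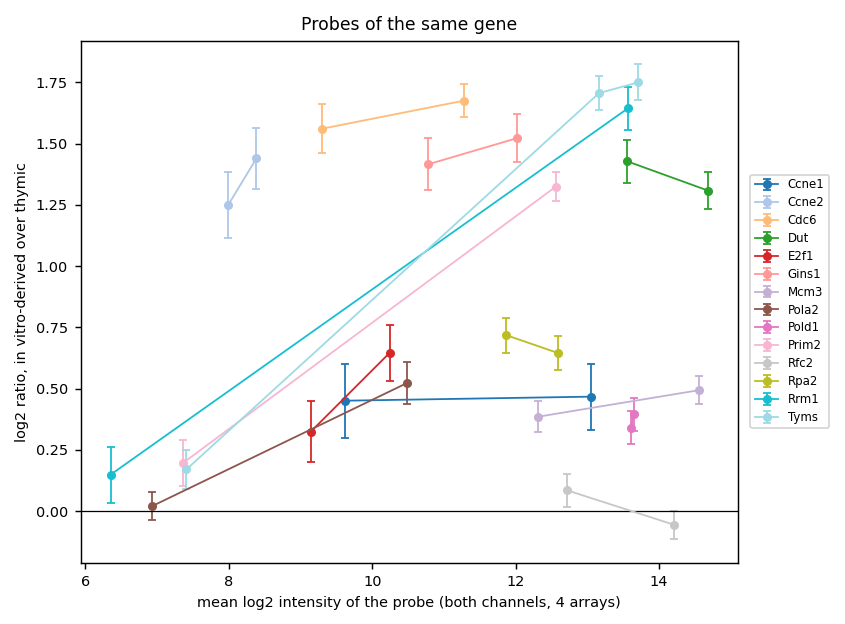
Log2 difference, in vitro-derived over thymic, of each tested probe of the 14 genes with 2 or more tested probes, with its standard error, against the mean log2 intensity of the probe. The probes of Tyms, Rrm1 and Prim2 are farthest apart, and the dimmer probe of Rrm1 was not well above background in thymic RNA.

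The 2 in vitro-derived preps were not alike in these genes. With 1 prep on a side there is no test, and the difference was read once against each thymic prep. In vitro prep 1 lay below prep 2 for 35 of the 43 genes (81.4%), against 51.8% of all genes. The 2 readings had the same sign for 40 of the 43, against 14122 of all 18471 genes. The median of prep 1 minus prep 2 was -0.15, with a range of -0.48 to 0.26. By a mean of at least 0.25 in size with both readings of 1 sign, 12 genes (27.9%) were under and 1 (2.33%) over, against 6.65% and 6.29% of all genes. The largest were Prim1 (-0.47 against thymic prep 1 and -0.49 against thymic prep 2), Cdc45l (-0.49 and -0.47) and Rrm2 (-0.48 and -0.42). Rpa1 was the 1 gene over, at 0.27 and 0.25. Between thymic prep 1 and prep 2, 0 of the 43 genes passed this size in either direction, against 1.49% over and 0.991% under in all genes, and their differences lay between -0.17 and 0.06.

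The genes past this size were unevenly spread over the roles, as a description with no test. In the helicase activation group 3 of 4 genes were under (Cdc45l, Gins1 and Gins2), in nucleotide supply 3 of 5 (Rrm1, Rrm2 and Tk1) and among G1/S drivers 3 of 4 (Ccne1, Ccne2 and E2f1). Cdt1, Prim1 and Rfc5 were the others. Rrm1 was past it only with its dim probe (-0.26, against -0.21 on the other probe), and 11 genes were under with probes above background in both channels. In the helicase ring none passed and the median was 0.00. The 21 genes of a G2/M list, all of them higher in in vitro-derived cells (median 1.96), all lay lower in in vitro prep 1, with a median of -0.33 and 16 past 0.25. Stromal markers were lower in in vitro prep 1 too, in 7 of 8 (median -0.24), and CD8 T cell markers were higher in it in 8 of 8 (median 0.15). Markers of immature double-positive thymocytes were also higher in in vitro prep 1, in 6 of 7 (median 0.30), with 4 past 0.25. The part of these marker lists in the gap was not tested. Across the 43 genes the prep gap and the difference between kinds had a Pearson correlation of -0.40 and a Spearman correlation of -0.34, as a description over genes that share the same 4 preps.

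**Figure D5:**
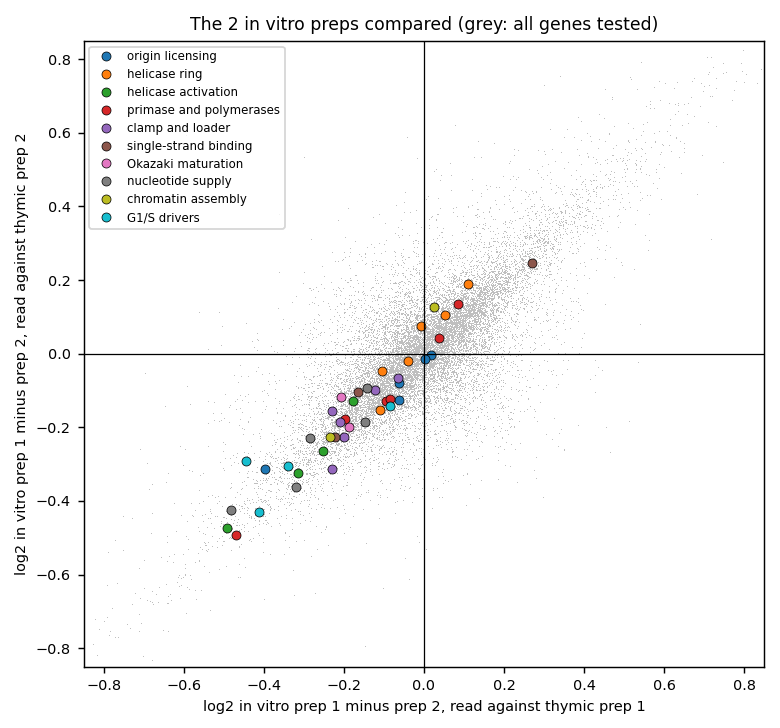
In vitro prep 1 minus prep 2 on the log2 scale, read against thymic prep 2 and against thymic prep 1, for the 43 genes (coloured by role) and all genes tested (grey, with values past the axes not drawn). Most of the 43 lie below 0 in both readings, with means down to -0.48 for Prim1 and Cdc45l.

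Among 60 other replication genes the pattern was less uniform: 41 rose (68.3%), 9 fell and 10 were not called, with a median of 0.52. Over all genes 26.7% were called higher and 25.1% lower. With median centring 52 of the 60 were higher and 2 lower (median 1.04), when 58.9% of all genes were higher. With the background fitted on all spots 34 were higher and 6 lower (median 0.48), when 16.9% of all genes were higher. In vitro prep 1 was under prep 2 past 0.25 for 17 of the 60 and over it for 0, against 6.65% and 6.29% of all genes. The largest increases were those of Ccna2, for the S phase cyclin A2 (2.48 ± 0.19), Dck, for the deoxycytidine kinase of nucleotide salvage (1.84 ± 0.10), Uhrf1, which guides maintenance DNA methylation (1.76 ± 0.08), and the nuclease-helicase gene Dna2 (1.65 ± 0.09). Samhd1 went the other way. It encodes the phosphohydrolase that breaks down deoxynucleotides, and lay at 7.08 and 7.39 in in vitro-derived preps and 9.85 and 9.65 in thymic preps (-2.51 ± 0.14). On its brighter probe the difference was -3.60, and with Agilent's processed ratios it was -4.35. The E2F family gene E2f5 (-0.71 ± 0.05) was also lower, and stayed so with median centring (-0.23). The uracil glycosylase gene Ung (-0.66 ± 0.06) and the polymerase epsilon subunit gene Pole4 (-0.49 ± 0.10) were lower with loess but lay at 0.14 and 0.31 with median centring. Also lower were Mcmbp, for an MCM-binding protein (-0.38 ± 0.10), the ribonucleotide reductase gene Rrm2b, induced by p53 (-0.37 ± 0.05), the origin recognition gene Orc5 (-0.30 ± 0.07) and the ribonuclease H2 gene Rnaseh2c (-0.26 ± 0.07), of which all but Rrm2b turned to positive values with median centring (0.30 for Mcmbp, 0.12 for Orc5 and 0.71 for Rnaseh2c) and Rrm2b lay at -0.06. Rrm2b and Rrm2, the gene with the largest rise among the 43, encode alternative small subunits of 1 enzyme.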

How the data were processed

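Total RNA of 2 in vitro-derived and 2 thymic preps was labelled with Cy5 and Cy3 and hybridised to 4 Agilent arrays on 1 slide in 1 scan, per the labels and the file headers. The authors deposited 1 scanner file per array holding intensity values of each spot, as a mean signal and a local background. Per the file headers, Agilent Feature Extraction (version 9.5.1.1) wrote them, together with a log10 ratio after its own background subtraction and dye normalization. The deposited series table holds the same log10 ratio. It correlated with the scanner's at 0.9999 or above on each array, its columns have a median of 0, and 99.6% of values were equal within 0.0001. No source used here gives the build of the probe design. Names were taken through RefSeq accessions for 22951 of 41174 probes and through an earlier symbol for 3109, and 8250 names changed.

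With limma 3.58.1 in R 4.3.3, spots marked as non-uniform or outliers (133 to 187 per array) were left out, background was corrected by normexp (offset 50), and loess was run within each array, control spots having weight 0. No spot of the 43 genes was saturated. A probe was tested where 1 channel or both stood well above background on every array, and a gene is the mean of its tested probes. The log2 ratios of the 4 arrays were solved for 4 prep values, which were fitted with lmFit and eBayes, with Benjamini-Hochberg adjustment over all 18471 genes. Errors are standard errors of this fit. The script was tested on simulated data. Levels are channel values after Aquantile normalization, and their gaps between in vitro preps differ from the ratios' by 0.03 in the median over the 43 genes. The 43 genes, the lists and the alternatives were chosen with earlier results of these data known. All 43 genes may be named. Of the 60 other replication genes, the 4 highest, the 4 lowest and up to 8 called on the minority side were named. The number of arrays limits the precision.

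Prep numbers were taken as names of preps and not as pairs. Over genes, in vitro and thymic prep differences correlated at 0.12. With 2 pairs only, this value cannot show whether preps were paired.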

Additional observations from a re-analysis of the deposited data

How the results depend on the processing

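The count of the 43 genes called higher was 41 with the brightest probe per gene, with both channels above background, with no filter on dim probes and with the prep number as a replicate block. It was 40 with a normexp offset of 16, 38 with Agilent's processed log ratios or the background fitted on all spots, 43 with median centring, and 35 to 41 on leaving out 1 prep. None of the 43 was called lower under these settings. Without thymic prep 1, Pola2, Pold1, Rfc5, Ccne1 and E2f1 lost their calls, and without thymic prep 2, Mcm5, Pola2, Pold1, Rpa1, Ccne1 and E2f1 did; these fits take their spread from the in vitro-derived preps, whose difference had an SD over genes of 0.184, against 0.102 for thymic preps. Ccne1 also lost its call with the offset of 16.

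With median centring 10871 genes were called higher and 2216 lower (83.1% of calls higher, against 51.5%), the median of the 43 genes was 1.67 beside 0.34 for all genes, Mcm2 turned to 0.76, and 0 of the 43 had in vitro prep 1 over prep 2 past 0.25. The background fitted on all spots gave 3126 genes higher and again 0 over. Past 0.5, 0 were over and 0 under. Leaving out 1 prep gave 2726 to 4902 genes higher, 2669 to 4577 lower, medians of the 43 genes of 0.87 to 1.02, and 0 to 1 over. Counts of prep 1 under prep 2 past 0.25 lay between 10 and 18. The block on prep number called 9756 genes, against 9567, and changed no call of the 43. The causes were not tested. The number of arrays, and signal over background for dim probes, limit these values.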
